A study of Mus musculus with 14 samples.

Results

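The reelin pathway and the larger receptors of the low-density lipoprotein (LDL) receptor family were described here in the brains of newborn mice with and without Capn15, the gene for a calpain protease. The set holds 9 genes, taken by symbol from a written list, and all 9 were found among the 17927 genes of the deposited counts. They are Reln, Vldlr, Lrp8, Dab1, Lrp1, Lrp1b, Lrp2, Lrp4 and Sorl1, and the rule names them by symbol and uses no measured value, though the list was written with earlier results of these data known. RNA-SEQ, which counts sequenced RNA fragments per gene, was done on 7 WT and 7 Capn15 KO brains at postnatal day 2 (P2). The mice were untreated and came from lines made with C57BL/6J mice. The study's methods describe a Capn15(lacZ-Neo) line and a floxed line, and the labels name the brains only as KO or WT. The 14 brains came from 6 litters, lettered A to F, with 4 brains from litter B and 2 from each of the others. Of the WT brains 2 were female and 5 male, and of the KO brains 4 were female and 3 male.

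Reelin is a large glycoprotein that is secreted into the extracellular matrix. In the cortex and hippocampus, reelin comes first from Cajal-Retzius cells at the surface and later from GABA interneurons. It binds the receptors VLDLR and ApoER2 (encoded by Lrp8) on migrating neurons, the adaptor DAB1 is then phosphorylated inside the cell, and neurons take up their layered positions. The other receptors share ligand-binding repeats with these and take up lipoproteins, proteases and growth factors or act in signalling.

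The total count per library was 39937477 to 57422382 in WT and 37620954 to 70910163 in KO, and each gene of the set had between 202 and 34174 counts in a library. In the smallest library 3 counts correspond to 0.0797 CPM (counts of a gene scaled to 1000000 counts per library), below the lowest value of any of these genes. Capn15 lay between 24.98 and 27.33 CPM in the WT brains of replicates 1 to 6 and between 12.16 and 14.53 CPM in the KO brains of the same replicates. In replicate 7, which is litter F, the library labelled WT was at 18.75 CPM and the library labelled KO at 20.15 CPM, both between those 2 ranges. Their intervals from counting alone (17.66 to 19.9 and 18.78 to 21.63 CPM) overlapped, so Capn15 did not follow the labels there. The genotype difference of each of the 9 genes is therefore also given without these 2 libraries. The labels name neurons as the cell type, but the tissue was whole brain and the markers of 12 cell types and regions, among them Ttr of the choroid plexus epithelium with a median of 778.0 CPM, were all detected. In bulk tissue fewer cells of a type and less RNA per cell cannot be told apart.

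The first question was how strongly the 9 genes were expressed. Per length of annotated exons, in RPKM (CPM divided by the exon length in kilobases), Lrp1 was highest in the WT brains at 27.23 ± 2.32 (SD, n = 7). Lrp8 followed at 18.59 ± 1.02 and Reln at 18.23 ± 2.01, and then Vldlr at 13.68 ± 0.394 and Dab1 at 13.3 ± 1.6. Sorl1 was at 6.778 ± 0.491, Lrp1b at 3.867 ± 0.471, Lrp4 at 3.649 ± 0.162 and Lrp2 at 0.3606 ± 0.0577 RPKM. The median over 17909 genes with a length was 4.088 RPKM, so that Lrp1 stood at the 90.1 percentile of all genes and Lrp2 at the 12.1 percentile. Among the 8 pairs of neighbours in this order, Lrp8 and Reln (p = 0.609), Vldlr and Dab1 (p = 0.453) and Lrp1b and Lrp4 (p = 0.422) did not differ beyond their spread by a two-sided exact sign-flip test over the 7 WT libraries. The other 5 pairs kept their order in 7 of 7 libraries, with p = 0.0156, the smallest this exact test can give, and an adjusted p of 0.025. The order depends on the length used. With the longest annotated transcript in place of all exons, Reln came first at 36.99 RPKM, before Lrp1 at 32.4 and Lrp8 at 29.5, and Dab1 at 19.93 passed Vldlr at 17.28.

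**Figure D1:**
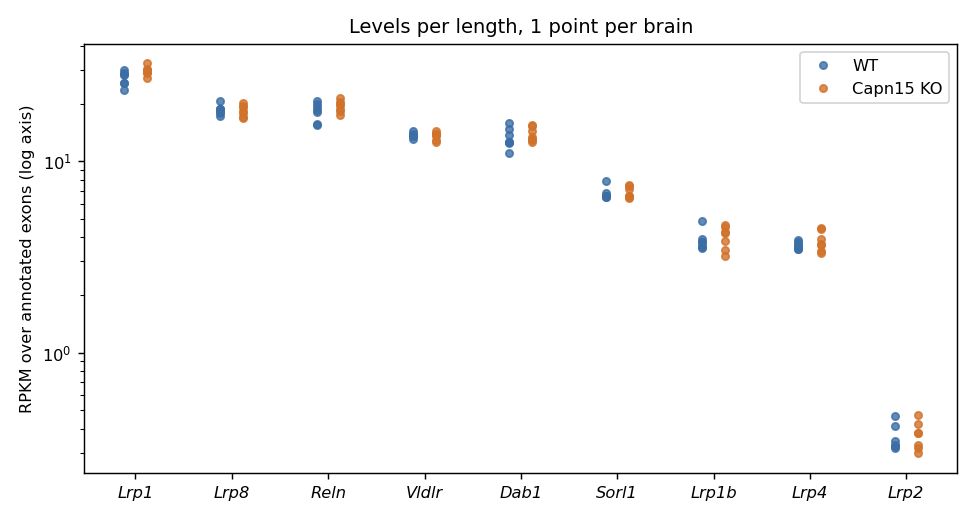
RPKM over annotated exons (log axis) of the 9 genes, ordered by WT mean, with 1 point for each WT (blue) and Capn15 KO (orange) brain. Lrp1 is highest with a WT mean of 27.23 and Lrp2 lowest with 0.3606, and the points of the 2 genotypes overlap for every gene.

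Reln, the ligand, lies on the minus strand of chromosome 5 from 21884454 to 22344702 (GRCm38), with 65 exons in its longest transcript. Its level had a minimum of 366.6, a median of 438.6 and a maximum of 493.1 CPM in the WT brains, and a minimum of 413.0, a median of 464.7 and a maximum of 510.3 CPM in the KO brains. The groups overlapped, with 6 of the 7 KO values inside the WT range and 1 above it. The means were 432.7 ± 47.6 and 460.4 ± 32.3 CPM (SD, n = 7 each). The KO minus WT difference, fitted together with litter and sex, was 0.12 on the log2 scale (SE 0.0326), or 8.89% with a 95% interval from 3.73% to 14.3%. The unadjusted p was 0.00211 and the FDR 0.4745 by edgeR's quasi-likelihood test, so Reln did not pass the threshold of 0.05. The KO value was higher in 6 of 7 litter-matched pairs, as it was in 6 or more pairs for 5.82% of all genes. An exact permutation test of the 7 against 7 log2 values, which takes no account of litter, gave p = 0.223. Without replicate 7 the difference was 0.11 with an FDR of 0.9188.

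The 250 bases before the start of Reln and of Lrp1, the pair of genes with the smallest genotype p of the set, are shown because levels of the pair also varied together over the brains. They are RefSeq sequences on GRCm38.p6, written 5′ to 3′ on the minus strand on which both genes lie, and capitals mark the letters GGGCGG or their complement CCGCCC, the box that Sp1 binds. Reln is chr5:22344706-22344955 and Lrp1 is chr10:127621149-127621398.
Reln: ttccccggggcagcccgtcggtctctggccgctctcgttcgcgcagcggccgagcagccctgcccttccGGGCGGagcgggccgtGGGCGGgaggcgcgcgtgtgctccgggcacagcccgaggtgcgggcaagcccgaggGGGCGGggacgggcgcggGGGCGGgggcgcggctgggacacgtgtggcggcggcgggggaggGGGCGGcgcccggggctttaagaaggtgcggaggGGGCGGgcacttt
Lrp1: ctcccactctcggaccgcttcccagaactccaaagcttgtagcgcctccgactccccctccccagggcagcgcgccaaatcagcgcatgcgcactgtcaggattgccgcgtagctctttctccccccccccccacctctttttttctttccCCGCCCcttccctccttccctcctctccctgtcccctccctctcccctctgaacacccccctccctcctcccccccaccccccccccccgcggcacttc
The Reln stretch held 6 such boxes, 37 CpG dinucleotides and 80.0% G and C, and the Lrp1 stretch held 1 box, 13 CpG and 67.2% G and C. Over 32851 RefSeq promoters of this length, read on both strands, 32.74% held GGGCGG, the median was 6 CpG and the 90th percentile 25 CpG. None of TGACGTCA (the CRE, in 1.55% of promoters), TCACACCT (a T-box site, 1.12%), CCAAT (33.85%) or TATAAA (12.37%) was in either stretch. The motifs do not overlap one another within these letters, and a match is a description of the sequence only.

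Vldlr and Lrp8 encode the reelin receptors VLDLR and ApoER2. Vldlr (chromosome 19, 27216484 to 27254231, plus strand) had a minimum of 131.1, a median of 137.9 and a maximum of 144.5 CPM in WT and 127.0, 138.7 and 145.3 CPM in KO. This was the tightest gene of the set, with a coefficient of variation of 3.76% over the 14 brains. Its KO minus WT difference was 0.01 on the log2 scale, with a 95% interval from -3.12% to 4.96% and an FDR of 1.0 by edgeR, and 0.0075 without replicate 7. Lrp8 (chromosome 4, 107802261 to 107876840, plus strand) had a minimum of 182.0, a median of 196.6 and a maximum of 216.1 CPM in WT and 177.6, 191.5 and 211.7 CPM in KO. The difference was -0.01, with an interval from -6.7% to 5.63% and an FDR of 1.0 by edgeR, and -0.0033 without replicate 7. For both receptors the groups overlapped, and the sign of the difference changed with the covariates or with a library left out.

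Dab1, the adaptor, spans 1125486 bases of chromosome 4 (103619359 to 104744844, plus strand). Its level had a minimum of 87.62, a median of 100.2 and a maximum of 125.4 CPM in WT and 99.41, 105.8 and 122.4 CPM in KO. All 7 KO values lay inside the WT range. The fitted difference was 0.08 on the log2 scale (SE 0.03055), or 5.97% with an interval from 1.26% to 10.9%, with an unadjusted p of 0.01615 and an FDR of 0.8117 by edgeR. KO was higher in 5 of 7 pairs, and without replicate 7 the difference was 0.07 with an unadjusted p of 0.06009 by edgeR.

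Lrp1 encodes a large endocytic receptor that takes up apolipoprotein E and proteases. It lies on the minus strand of chromosome 10 (127538161 to 127621148), with 89 exons. Its level had a minimum of 416.8, a median of 497.8 and a maximum of 532.9 CPM in WT and 481.6, 523.2 and 574.5 CPM in KO. The groups overlapped, with 2 KO brains above every WT brain, and the means were 482.4 ± 41.1 and 525.8 ± 28.1 CPM (SD, n = 7 each). The fitted difference was 0.15 on the log2 scale (SE 0.03511), or 11.1% with an interval from 5.44% to 17.05%, and KO was higher in 6 of 7 pairs. This was the smallest p of the set and rank 34 among all genes, with an unadjusted p of 0.0007219 and an FDR of 0.3774 by edgeR's quasi-likelihood test. By DESeq2, which called 17 genes (0.0948%), the FDR was 0.02491, so the call depends on the test. The exact permutation test over the log2 values gave p = 0.042, and 0.0887 without replicate 7. Without replicate 7 the fitted difference was 0.13 with an edgeR FDR of 0.6229.

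Lrp1b, Lrp2, Lrp4 and Sorl1 are the other receptors. Lrp1b, a close relative of Lrp1 with slow endocytosis, spans 2058379 bases of chromosome 2 (40595246 to 42653624, minus strand), and had a minimum of 83.52, a median of 90.12 and a maximum of 116.1 CPM in WT and 76.42, 100.4 and 111.0 CPM in KO. Its fitted difference was 0.09, with an unadjusted p of 0.04429 and an FDR of 0.9591 by edgeR, and without replicate 7 the difference was 0.06 with an unadjusted p of 0.1613. Lrp2 encodes megalin, an endocytic receptor of absorptive epithelia and ependyma (chromosome 2, 69424340 to 69586065, minus strand). Lrp2 was the lowest gene, with 202 to 452 counts per library, and its level ran from 5.314 to 7.81 CPM in WT and from 4.967 to 7.916 CPM in KO. The KO minus WT difference was 0.04 with a wide 95% interval, from -9.02% to 16.9%, and 0.06 without replicate 7.

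Lrp4, the agrin receptor of the neuromuscular junction (chromosome 2, 91457511 to 91513779, plus strand), was at 38.33 ± 1.71 CPM in WT and 40.44 ± 4.75 CPM in KO. The KO brains were more spread, with 3 above and 2 below every WT brain, and the difference of 0.07 had an interval from -2.36% to 13.5%. It was 0.098 without replicate 7, and lay between 0.0083 (without either library of replicate 4) and 0.1147 (without either of replicate 5) with 1 library left out. Sorl1 encodes SORLA, a sorting receptor for the amyloid precursor protein (chromosome 9, 41964720 to 42124297, minus strand). Sorl1 was at 76.73 ± 5.56 CPM in WT and 78.06 ± 5.32 CPM in KO, with a fitted difference of 0.04 and an interval from -2.08% to 8.06%. It was 0.0201 without replicate 7. With 1 library left out it lay between 0.0054 (without either library of replicate 5) and 0.0963 (without either of replicate 4), where the unadjusted p was 0.00922 without the WT and 0.008056 without the KO library and the FDR 0.5002 and 0.4861 by edgeR. With all 14 libraries neither gene nor Lrp2 had an unadjusted p under 0.05 by edgeR.

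**Figure D2:**
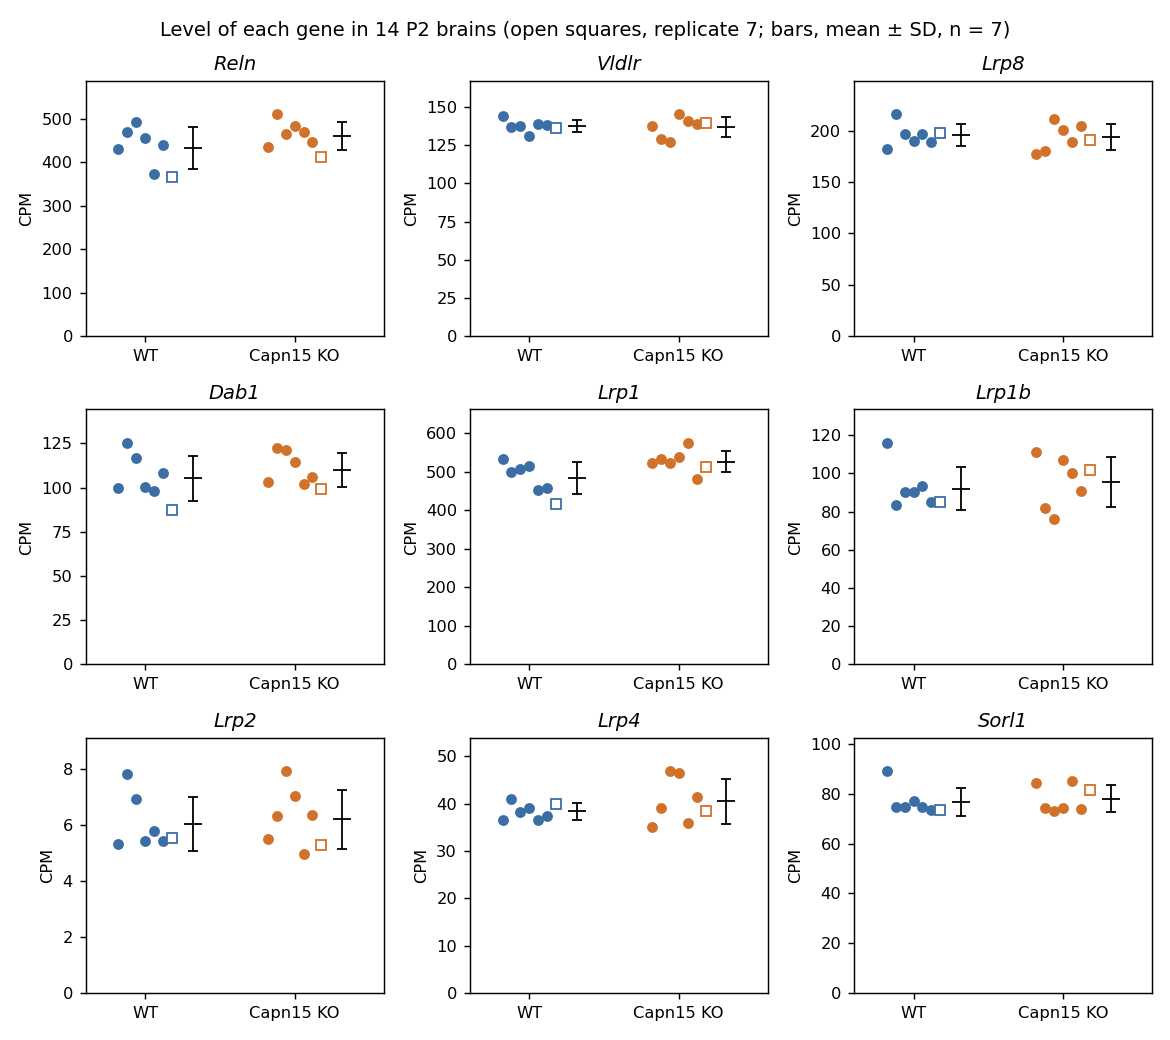
CPM of the 9 genes in each WT (blue) and Capn15 KO (orange) brain, with open squares for replicate 7, whose Capn15 levels did not follow the labels, and bars for the mean ± SD (n = 7). The groups overlap in every panel. In the Lrp1 panel 2 KO brains lie above every WT brain, and in the Lrp4 panel 3 lie above and 2 below.

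By genotype 0 of the 9 genes passed an FDR of 0.05 with edgeR, where 1 gene of 17927 did (0.00558%) and 922 genes (5.14%) had an unadjusted p under 0.05. The gene that passed was not Capn15, whose difference was -0.81 with an FDR of 0.07472 by edgeR. Without replicate 7 the difference of Capn15 was -0.98 with an edgeR FDR of 1.582e-06. Of the 9 genes, 4 had an unadjusted p under 0.05, namely Reln, Dab1, Lrp1 and Lrp1b, all higher in KO, while 2.88% of all genes had such a p and were higher in KO. The fitted value was positive for 8 of 9 genes, with a median of 0.0739 beside 0.0015 over all genes, and 6 to 9 were positive over the alternatives. Without replicate 7 the genes of the set with an unadjusted p under 0.05 were Reln and Lrp1, beside 3.74% of all genes. With genotype alone in the edgeR model only Lrp1 had such a p, beside 1.45% of all genes. With genotype and sex it was again only Lrp1, and with genotype and litter Reln and Lrp1. The exact permutation test, which takes no account of litter, gave p = 0.427 for Dab1 and 0.59 for Lrp1b. Of the set 8 genes have over 10 kb of annotated exons, and of the 1455 genes of that length with a mean of at least 1 log2 CPM, 10.4% had an unadjusted p under 0.05 and were higher in KO, with a median of 0.0189. Of these 1455 long genes 2.2% had a difference at or above that of Lrp1 and 4.33% at or above that of Reln. The part of length in these values was not tested. No gene of the set passed the test of a genotype-by-sex interaction with edgeR, where 1 gene (0.00558%) did. With litter in the model this term sets replicate 7, the only pair of the same sex, against the other pairs and cannot be fitted without it.

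**Figure D3:**
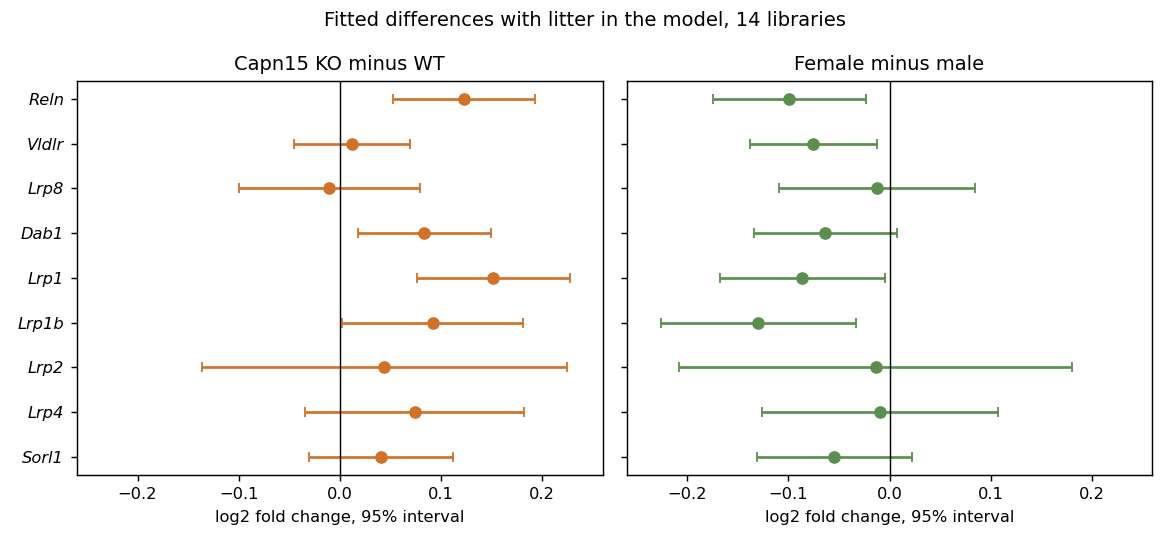
Fitted log2 fold change of the 9 genes with its 95% interval (not adjusted over genes), for Capn15 KO minus WT on the left and female minus male on the right, from edgeR with litter, sex and genotype in the model. The largest genotype value is Lrp1 at 0.15, and all 9 sex values are below 0.

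Sex was the second factor of the same model. All 9 fitted values were lower in females, with a median of -0.0635 beside 0.0021 over all genes, and 0 of 9 passed an FDR of 0.05 with edgeR, where 12 of 17927 genes (0.0669%) did and 904 (5.04%) had an unadjusted p under 0.05. An unadjusted p under 0.05 was found for 4 of 9 genes, all lower in females, where 2.63% of all genes were so. By edgeR these were Lrp1b (-0.13, unadjusted p = 0.0118), Reln (-0.10, unadjusted p = 0.0138), Vldlr (-0.08, unadjusted p = 0.02155) and Lrp1 (-0.09, unadjusted p = 0.03919), each with an FDR of 0.9274. Vldlr had a median of 134.5 CPM in the 6 females and 139.0 CPM in the 8 males, and the ranges of 127.0 to 139.1 and 136.4 to 145.3 CPM overlapped. The plain mean of Reln was 447.4 CPM in females and 445.9 CPM in males while the fitted value was lower in females with litter in the model (-0.10) and without it (-0.0249). Without litter in the model 7 of 9 genes were lower and 0 had an unadjusted p under 0.05. Genes with over 10 kb of exons had a median sex value of -0.0346. In 6 of the 7 pairs the KO and WT brains differed in sex, so that a plain difference within a pair mixes the 2 factors. In litters A, B and E the KO brains were female and the WT brains male, and in C and D the reverse. With litter in the model, the genotype and sex values thus rest on the same pairs and are not 2 independent results.

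Litter was the factor by which most genes of the set passed a test. By edgeR's test of all litter terms 5 of 9 genes (55.6%) passed an FDR of 0.05, where 5301 of 17927 genes (29.6%) did, and among genes with over 10 kb of exons 42.0% did. Dab1 had the smallest FDR (0.0004347), before Lrp1b (0.001836), Reln (0.002143), Sorl1 (0.03138) and Lrp1 (0.04222). Lrp2 (0.06385), Lrp4 (0.1406), Vldlr (0.4412) and Lrp8 (0.4582) did not pass. Without replicate 7, which is all of litter F, 4 of the 5 passed, beside 27.5% of all genes, and Lrp1 had an edgeR FDR of 0.1478. With the replicate block in place of litter, Dab1, Lrp1b and Reln passed, 3 of 9 beside 21.6% of all genes.

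The litters did not rank the genes alike. Reln was highest in litter B (484.6 CPM) and lowest in litter F (389.8 CPM), a 1.24-fold range, and Dab1 followed the same order at its ends, with 121.5 CPM in B and 93.51 CPM in F. Lrp1b was instead highest in litter A (113.5 CPM) and lowest in litter B (83.05 CPM), a 1.37-fold range. Sorl1 was also highest in litter A, at 86.74 CPM, against 73.68 CPM in litter E. Lrp1 ran from 527.3 CPM in litter A to 463.7 CPM in litter F. Vldlr differed by 1.06-fold between its extreme litters.

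**Figure D4:**
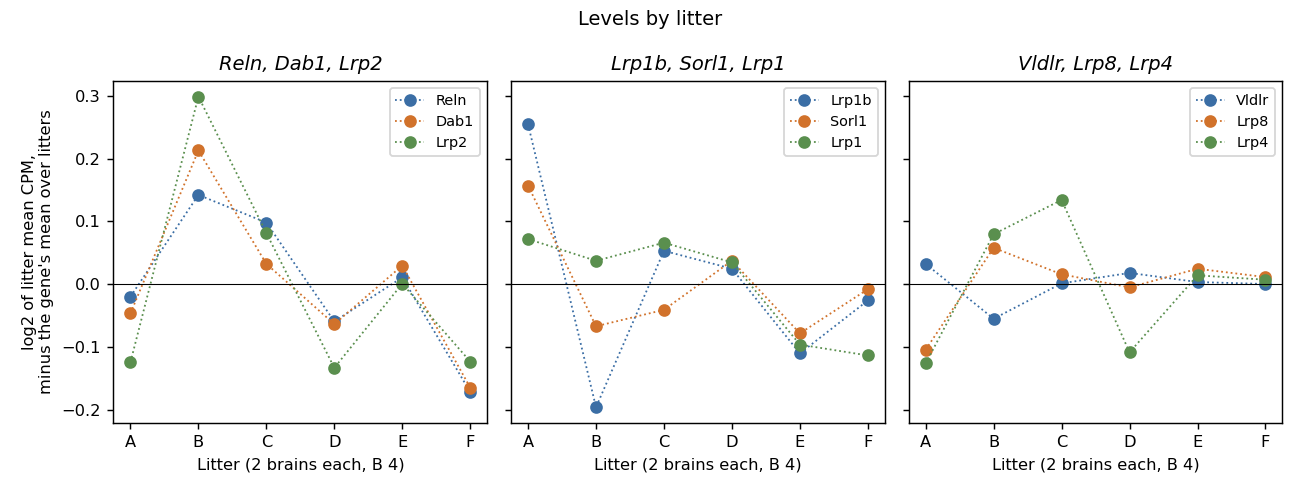
log2 of the mean CPM of each litter (4 brains in B, 2 in each other), minus the mean of the gene over litters, with dotted lines that join litters of no order. Reln and Dab1 are highest in B and lowest in F, Lrp1b and Sorl1 are highest in A, and Vldlr stays within a 1.06-fold range.

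Levels of the 9 genes were then compared with one another over the 14 brains, on log2 CPM with the mean of each genotype removed. Of 36 pairs, 9 passed an adjusted p of 0.05 for both Pearson's r and Spearman's rho by permutation tests, 8 positive and 1 negative. Brains of 1 litter are not independent, so these p-values are too small. The value within litters (with litter, sex and genotype removed, 6 residual degrees of freedom) is given beside r, without a test. Reln and Dab1, ligand and adaptor, had r = 0.807 (permutation p = 0.00062, adjusted 0.0063) and rho = 0.798 (permutation p = 0.00093, adjusted 0.0112), and r = 0.752 without the 2 brains farthest from the median of Reln. Within litters the value was -0.387, of the opposite sign, and whether a relation is absent there was not tested.

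Dab1 and Lrp2 had r = 0.798 (permutation p = 0.00063, adjusted 0.0063) and rho = 0.763 (permutation p = 0.00228, adjusted 0.0157), with 0.752 without the 2 farthest brains and 0.293 within litters. Lrp1b and Sorl1 had r = 0.78 (permutation p = 0.0007, adjusted 0.0063) and rho = 0.648 (permutation p = 0.0135, adjusted 0.0487), with 0.619 without the 2 farthest brains and 0.146 within litters. For both pairs the value within litters was small.

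Vldlr and Lrp1b had r = 0.808 (permutation p = 0.00066, adjusted 0.0063) and rho = 0.829 (permutation p = 0.00046, adjusted 0.0112), and r = 0.648 without the 2 farthest brains. Within litters the value was 0.799. Lrp8 and Lrp4 had r = 0.772 (permutation p = 0.00127, adjusted 0.00804) and rho = 0.798 (permutation p = 0.00088, adjusted 0.0112), with 0.684 without the 2 farthest brains and 0.802 within litters. Lrp2 and Lrp4 had r = 0.763 (permutation p = 0.00134, adjusted 0.00804) and rho = 0.785 (permutation p = 0.00145, adjusted 0.013), with 0.663 without the 2 farthest brains and 0.829 within litters. Lrp8 and Lrp2 had r = 0.755 (permutation p = 0.00212, adjusted 0.0109) and rho = 0.71 (permutation p = 0.00571, adjusted 0.0257), with 0.49 without the 2 farthest brains and 0.899 within litters. For these receptors the value within litters was thus positive too, but it was not tested. Reln and Lrp1, whose promoters are printed above, had r = 0.676 (permutation p = 0.00801, adjusted 0.0326) and rho = 0.662 (permutation p = 0.0113, adjusted 0.0454), with 0.431 without the 2 farthest brains and 0.759 within litters. The negative pair was Lrp4 and Sorl1, with r = -0.677 (permutation p = 0.00816, adjusted 0.0326) and rho = -0.758 (permutation p = 0.00261, adjusted 0.0157), and -0.66 without the 2 farthest brains and -0.539 within litters. Reln and its receptors were not among the pairs that passed, with r = -0.197 for Vldlr and 0.051 for Lrp8. Within litters these values were -0.326 and -0.751. Among other pairs that did not pass, values within litters reached 0.989 (Lrp1 and Sorl1) and -0.91 (Reln and Lrp2).

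**Figure D5:**
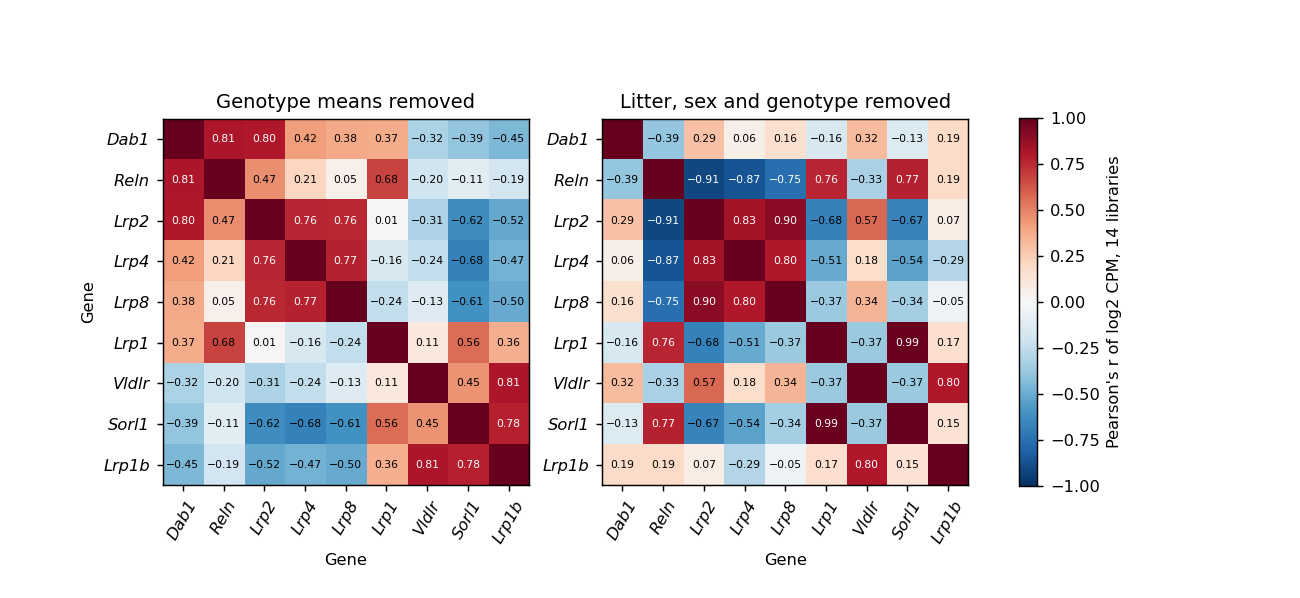
Pearson's r of log2 CPM between the 9 genes over 14 brains, with genotype means removed (left) and with litter, sex and genotype removed (right, 6 residual degrees of freedom). Reln and Dab1 stand at 0.807 on the left and -0.387 on the right, while Vldlr and Lrp1b stand at 0.808 and 0.799.

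The genes most like each of the 9 over the 14 brains were taken from 13887 genes with a mean of at least 1 log2 CPM, by Pearson's r with genotype means removed, as a description. The value with litter and sex also removed follows each r. Reln was most like Smarca4 (r = 0.926, then 0.856), the gene for the ATPase of the BAF chromatin remodelling complex, and Gm44645 (0.912, then 0.313). Dab1 was most like Ccser1 (0.972, then 0.703) and Ttc28 (0.971, then 0.833). Lrp1 was most like Sez6l (0.923, then 0.918) and Ubr4 (0.919, then 0.744), and Lrp1b like Xpnpep3 (0.96, then 0.767) and Sptbn1 (0.952, then 0.779). Lrp2 was most like Rpl31 (0.971, then 0.942), a gene of the large ribosomal subunit, and Resf1 (0.969, then 0.973). Vldlr was most like Lrfn5 (0.916, then 0.841) and Lrp8 like Bbx (0.931, then 0.967) and Nfatc4 (0.895, then 0.978). Lrp4 was most like Itih5 (0.92, then 0.925) and Dnajc28 (0.896, then 0.89), and Sorl1 like Cadm2 (0.911, then 0.598) and Adam19 (0.909, then 0.855). Gm44645 and Cadm2 were the genes whose value fell under 0.7. None of these was another gene of the set.

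The rest of the pathway was covered by 3 lists. Of 26 genes of reelin signal transduction, all were measured and 0 passed an FDR of 0.05 by genotype with edgeR, with a median of -0.0011. By edgeR, the genes with the smallest p were Gsk3b, a kinase downstream of DAB1 (0.06, unadjusted p = 0.03781), Rapgef1, an exchange factor that activates Rap1 (0.07, unadjusted p = 0.0613), and Cdk5r2, an activator of Cdk5 (0.10, unadjusted p = 0.1225). Among 13 other receptors of the LDL receptor and VPS10 families 0 passed an FDR of 0.05 with edgeR. Lrp5, a Wnt co-receptor, was at 15.07 ± 0.87 CPM in WT and 16.32 ± 0.844 CPM in KO (0.11, unadjusted p = 0.03103, FDR 0.9334 by edgeR), higher in 6 of 7 pairs. Sorcs3, a sorting receptor, had a difference of 0.06 (unadjusted p = 0.0797 by edgeR).

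Among ligands, chaperones and proteases 22 of 24 genes were measured (Dkk1 and Sost were not in the table) and 0 passed with edgeR. Cubn, which encodes cubilin, a partner of megalin in endocytosis, had a minimum of 2.586, a median of 2.82 and a maximum of 3.459 CPM in WT and 2.066, 2.399 and 2.722 CPM in KO. It was lower in KO in 6 of 7 pairs by -0.29 on the log2 scale, with an unadjusted p of 0.007797 and an FDR of 0.746 by edgeR. Dab2, an adaptor of these receptors, had a difference of -0.13 and Spon1, an extracellular ligand, one of -0.04, neither with an unadjusted p under 0.05 in all 14 libraries. Without replicate 7 the edgeR difference of Cubn was -0.35 (unadjusted p = 0.002173) and that of Dab2 -0.16 (unadjusted p = 0.04842), while that of Gsk3b was 0.05 (unadjusted p = 0.1085) and that of Rapgef1 0.04 (unadjusted p = 0.2148). By litter 9 of 26 (34.6%), 7 of 13 (53.8%) and 10 of 22 (45.5%) genes of the 3 lists passed, beside 29.6% of all genes.

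Marker lists of 12 cell types and regions were set beside these values. The 12 choroid plexus markers, an epithelium in which Lrp2 is used, summed to 877.0 to 1132 CPM in WT and 730.6 to 985.2 CPM in KO. Of these 9 had an unadjusted p under 0.05 and were lower in KO, 1 was higher and 0 passed an FDR of 0.05 with edgeR, while 2.26% of all genes had such a p and were lower. Lrp2 itself had an FDR of 1.0. The part of these cells in the value of Cubn was not tested. The 8 Cajal-Retzius markers, cells that secrete reelin, summed to 205.0 to 243.5 CPM in WT and 205.2 to 248.9 CPM in KO, and were highest in litter B (243.2 CPM) and lowest in litter A (207.4 CPM). Most of this sum came from Calb2 (median 83.49 CPM), Ebf3 (45.09 CPM) and Ndnf (37.51 CPM), while Trp73 was at 4.651 CPM. Which cells these transcripts came from was not tested. The 7 neuron markers summed to 7076 to 7492 CPM in WT and 7124 to 7429 CPM in KO.

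Of 108 relations between the 9 genes and the 12 lists, 16 passed an adjusted p of 0.05 for both r and rho, 8 positive and 8 negative. A part of them is described here. As for the pairs of genes, brains of 1 litter are not independent, so these p-values are too small. The mean of the Cajal-Retzius markers and Dab1 had r = 0.921 (permutation p = 1e-05, the smallest these permutations can give, adjusted 0.00054) and rho = 0.925 (permutation p = 1e-05, adjusted 0.00108), 0.894 without the 2 farthest brains and 0.707 within litters. With Reln the same list had r = 0.621 (permutation p = 0.0181, adjusted 0.0652) and rho = 0.604 (permutation p = 0.0243, adjusted 0.09). Within litters the value was -0.824, of the opposite sign, and was not tested. The GABA interneuron markers and Reln had r = 0.745 (permutation p = 0.00237, adjusted 0.0213) and rho = 0.824 (permutation p = 0.0006, adjusted 0.0081), 0.666 without the 2 farthest brains and 0.441 within litters. The oligodendrocyte lineage markers, which were highest in litter F (578.2 CPM) and lowest in litter B (365.7 CPM), ran against Dab1, with r = -0.925 (permutation p = 2e-05, adjusted 0.00072) and rho = -0.921 (permutation p = 2e-05, adjusted 0.00108), -0.903 without the 2 farthest brains and -0.457 within litters. The cerebellar granule and Purkinje lineage markers ran against Reln, with r = -0.77 (permutation p = 0.00129, adjusted 0.0139) and rho = -0.851 (permutation p = 0.00019, adjusted 0.0041), -0.616 without the 2 farthest brains and -0.768 within litters. The same list and Dab1 had r = -0.795 (permutation p = 0.00082, adjusted 0.0127) and 0.168 within litters. The red blood cell markers, which ran from 29.83 CPM in litter D to 222.2 CPM in litter B, had r = 0.665 with Reln (permutation p = 0.00942, adjusted 0.0467) and r = 0.677 with Dab1 (permutation p = 0.00704, adjusted 0.0414), with rho = 0.714 and 0.846, and 0.362 and 0.35 within litters. Lrp2 ran with the Cajal-Retzius markers (r = 0.848, 0.617 within litters) and against the oligodendrocyte lineage markers (-0.878, -0.847 within litters), as Dab1 did. The neuron markers ran against Dab1 (-0.782, -0.164 within litters) and Lrp2 (-0.855, -0.587 within litters). The GABA interneuron markers ran with Dab1 (0.781, 0.269 within litters). These relations also passed. The part of cell makeup or blood content in the litter values of Reln, Dab1 and Lrp2 was not tested.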

How the data were processed

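RNA-SEQ of 14 P2 mouse brains was analysed from the counts per gene that the authors deposited without normalization. Per the paper's methods and the labels, reads were trimmed with Trimmomatic, aligned to GRCm38 with STAR and counted per gene. The methods name HTSeq-count and the ScriptSeq kit, while the labels name featureCounts and a stranded TruSeq kit. The annotation release, the strand setting and the gene filter are not given in the sources used here, so reads of overlapping antisense genes may not be told apart. At most 1.634% of the exon bases of a gene of the set are shared with another gene. Capn15, used here to check the labels, shares 19.288% of its exon bases with D630044L22Rik on the other strand. The part of such reads in the Capn15 counts was not tested. The labels give the genotype and the replicate number, and the column names give litter and sex.

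Counts were fitted with edgeR 4.0.16 (R 4.3.3) by the quasi-likelihood test with TMM factors, litter, sex and genotype, over 17927 genes, with Benjamini-Hochberg adjusted p-values (FDR, threshold 0.05). Alternatives used DESeq2 1.42.0, limma 3.58.1, other scalings, filters and covariates. Exact permutation tests used the 3432 regroupings of 7 against 7 libraries (smallest p 0.000583), sign-flip tests the 7 libraries or pairs (smallest p 0.0156) and correlations 100000 permutations, all two-sided. log2 CPM used a prior count of 2. Exon lengths and positions are from GENCODE M21, and promoters from RefSeq, with an entry for 7 of the 9 genes. The fitting script was tested on simulated counts with no litter or sex effect and with planted genotype changes larger than those of the 9 genes. That test does not cover differences as small as theirs. Python 3.11.15, scipy 1.17.1 and matplotlib 3.10.9 were used.

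The 9 genes and all lists were chosen with earlier results of these data known, and the classes of exon length after values were seen. Named genes are the 9, Capn15, the 3 genes of each list with the smallest genotype p, and the 2 genes most like each of the 9. Of the genes so chosen, 2 are not reported here. Replicate numbers pair WT and KO brains of 1 litter, as the column names show. The deviations of paired brains correlated by 0.154 on average (-0.481 to 0.555), and those of brains from other litters by -0.127. Nothing more is said of the animals, so p-values measure the spread between these brains. No pair of libraries agreed within sampling noise, the smallest chi-square per gene being 4.66.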

Additional observations from a re-analysis of the deposited data

Results flagged for a closer look

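In groups of 7 brains, the gap between the extreme value and its neighbour was divided by the range of the group and set against Dixon's critical value of 0.568. Of 20 groups examined, chance would give about 1 beyond it. Lrp1b was highest in WT replicate 1, at 116.1 CPM with the next WT brain at 93.2 CPM (0.667). Sorl1 was highest in the same brain, at 89.06 CPM with the next at 77.01 CPM (0.748). This brain is of litter A, in which the mean of both genes was highest.

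Capn15 was lowest among WT in replicate 7, at 18.75 CPM with the next at 24.98 CPM (0.761), and highest among KO in replicate 7, at 20.15 CPM with the next at 14.53 CPM (0.647). The genotype difference of Capn15 between the sexes was -2.16 on the log2 scale (FDR 0.04745 by edgeR's quasi-likelihood test). Once litter is in the model, this term sets replicate 7 against the other pairs and cannot be fitted without that replicate.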

How the results depend on the processing

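The count of 0 of the 9 genes by genotype held under 26 of 27 alternatives, the exception being DESeq2 with 1 (Lrp1), and 0 by sex and by the interaction held under all that were run. Over these settings the difference of Reln ran from 0.0802 to 0.1749 and that of Lrp1 from 0.112 to 0.2182, always higher in KO. Genes called by genotype numbered 1, against 0 with total counts, 34 with the likelihood ratio test, 17 with DESeq2, 2 with genotype and litter, 7 without replicate 7, 37 with the likelihood ratio test without replicate 7 (chosen after seeing the data), and 0 to 7 with 1 library left out. By sex the likelihood ratio test called 36, DESeq2 19 and the likelihood ratio test without replicate 7 called 42, against 12. By the interaction, where 1 gene was called, upper-quartile factors, total counts and the fit without litter gave 0, the likelihood ratio test 48, DESeq2 13, limma-voom 2, and 0 to 4 with 1 library left out. With the replicate block in place of litter, 0 genes were called by genotype and 0 by the interaction, and by litter 3867 genes against 5301 and 3 of the 9 against 5. Under the block the unadjusted p of Lrp1b by genotype was 0.05657 and that of Lrp1 by sex 0.0515 (edgeR), and the calls of the 9 genes at an FDR of 0.05 by genotype, sex and interaction did not change. By litter 3 to 6 of the 9 were called with 1 library left out.

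Some small differences changed sign. By genotype, Vldlr was -0.0087 with genotype alone, -0.0095 with genotype and litter, and between -0.011 and 0.0398 with 1 library left out. Lrp8 lay between -0.0414 and 0.0131 and Lrp2 between -0.0808 and 0.1479. By sex, without litter, Dab1 was 0.0049 and Lrp2 0.0322. With 1 library left out Lrp8 lay between -0.039 and 0.0223, Lrp2 between -0.1295 and 0.1259 and Lrp4 between -0.0553 and 0.0643. The cause was not tested. The interaction could not be fitted without a library of replicate 7. Depth limits Lrp2 most, since it had as few as 202 counts.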
